A study of Rattus norvegicus with 14 samples.

Results

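The interferon response genes described here are a list of 41 rat genes that interferons are known to induce or that carry the interferon signal. Symbols were looked up in the probe-to-gene table of the array, and each gene was represented by the probe set with the highest mean log2 signal over all arrays among those paired with that symbol alone. Of the 41 genes, 39 had such a probe set, against 14217 genes in the whole series. Gbp5 and Xaf1 did not and are not described. A filter on low values (signal above the median of the array on at least 2 of the 14 arrays) was passed by 38 of the 39 genes and by 10088 genes in all. Cxcl11 did not pass, so its values are given without a test.

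Cells were peripheral blood mononuclear cells (PBMC), the lymphocytes and monocytes of blood, separated on a density gradient from female Wistar rats. The groups carry the names of the labels. MTXAP (3 arrays) were rats with rheumatoid arthritis raised by immunisation with collagen in Freund's adjuvant, sampled after 34 days of methotrexate and acupuncture. AP (3 arrays) were arthritic rats after 34 days of acupuncture alone, and RA (2 arrays) were arthritic rats before any therapy. HAP (3 arrays) were healthy rats after 34 days of acupuncture, and NORA (3 arrays) were healthy rats before therapy. Acupuncture is called mechanical stimulation in the study, where a short needle was inserted and turned at points of the lower back and the leg, and methotrexate, a folate antagonist used against arthritis, was injected weekly into the peritoneum. The matching of the labels to the study's codes (MTXMS_A, MS_A, CIA_B, NOCIAMS_A and NOCIA_B, in the same order) is a reading made here. Each rat was killed when its blood was drawn, so the arrays of a group are separate animals. No group without acupuncture was sampled at day 34, so time and therapy cannot be told apart where a treated group is compared with RA or NORA. No healthy group given adjuvant alone was sampled, so arthritis and immunisation cannot be told apart where arthritic and healthy rats are compared. MTXAP and AP share the day and the acupuncture, and no group had methotrexate alone. No injection is described for AP, so the drug and its weekly injection cannot be told apart in MTXAP over AP. Ages were not given in the sources used here, nor was the reason why RA has 2 arrays.

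Interferons are cytokines of antiviral defence. Type I interferons act through receptor-bound Janus kinases on a complex that holds Stat2 and Irf9 and binds the interferon-stimulated response element (ISRE) in the promoters of its targets, while interferon gamma acts mainly through a palindromic STAT site. The induced genes block virus replication, sense foreign nucleic acid, load peptides on MHC class I and, through feedback inhibitors, turn the signal off again. In blood, monocytes, dendritic cells and NK cells take a large part in producing or answering interferon, and a raised interferon signature in blood is known from autoimmune disease in humans.

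Promoters of 30 of the 39 genes were found in the RefSeq table of rat promoters (assembly GRCr8, 250 bases before to 50 after the annotated start). The 9 genes without an entry were Isg15, Mx2, Ifit2, Ifi27l2b, Dhx58, Usp18, Zbp1, Adar and Rtp4. The ISRE was searched as GAAA followed after 2 free bases by GAAA on both strands, with overlapping matches counted, and was found in 18 of the 30 promoters (60%), against 1034 of all 27457 promoters of the same length (3.77%). The STAT site, searched as TTCNNNGAA, which reads the same on both strands, was found in 9 of 30 (30%), against 2382 of all 27457 (8.68%). In 17 of the 18 promoters the first ISRE match began 16 to 150 bases before the start, and in Dtx3l it lay after it. Oas1a, Tapbp, Bst2 and Socs1 held overlapping pairs of matches. The sequences shown are the 250 bases before the start of 6 of the genes with a match, chosen after their values were seen to show genes of different roles, 5′ to 3′ on the strand of the gene, with the ISRE in capitals. A match is a description of the letters and not a measured binding site.

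Ifit3 (chr1:241527076-241527325, plus strand): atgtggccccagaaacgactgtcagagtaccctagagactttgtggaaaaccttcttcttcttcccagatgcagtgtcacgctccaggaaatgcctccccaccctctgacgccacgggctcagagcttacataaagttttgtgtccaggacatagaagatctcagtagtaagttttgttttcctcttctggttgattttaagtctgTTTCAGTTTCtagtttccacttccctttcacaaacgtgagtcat
Tap2 (chr20:4652297-4652546, minus strand): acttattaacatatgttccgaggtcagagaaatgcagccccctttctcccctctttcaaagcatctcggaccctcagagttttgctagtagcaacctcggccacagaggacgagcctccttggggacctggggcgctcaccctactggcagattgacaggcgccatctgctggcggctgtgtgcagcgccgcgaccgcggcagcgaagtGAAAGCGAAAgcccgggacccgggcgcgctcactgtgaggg
Gbp2 (chr2:234005477-234005726, plus strand): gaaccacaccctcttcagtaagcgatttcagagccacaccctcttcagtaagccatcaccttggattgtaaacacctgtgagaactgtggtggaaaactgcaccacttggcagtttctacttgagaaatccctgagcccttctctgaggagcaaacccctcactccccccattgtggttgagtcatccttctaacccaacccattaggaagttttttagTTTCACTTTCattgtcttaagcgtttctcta
Lgals3bp (chr10:104127849-104128098, minus strand): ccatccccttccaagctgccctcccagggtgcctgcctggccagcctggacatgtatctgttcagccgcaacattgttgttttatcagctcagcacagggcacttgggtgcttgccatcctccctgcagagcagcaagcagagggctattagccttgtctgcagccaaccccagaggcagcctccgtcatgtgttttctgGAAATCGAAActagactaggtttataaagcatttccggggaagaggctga
Socs1 (chr10:5389324-5389573, plus strand): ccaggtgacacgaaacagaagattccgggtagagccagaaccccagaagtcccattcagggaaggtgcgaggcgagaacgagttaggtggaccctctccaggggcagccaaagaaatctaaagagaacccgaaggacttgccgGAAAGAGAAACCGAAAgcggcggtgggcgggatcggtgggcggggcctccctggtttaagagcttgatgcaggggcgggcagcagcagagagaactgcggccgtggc
Rsad2 (chr6:48788121-48788370, minus strand): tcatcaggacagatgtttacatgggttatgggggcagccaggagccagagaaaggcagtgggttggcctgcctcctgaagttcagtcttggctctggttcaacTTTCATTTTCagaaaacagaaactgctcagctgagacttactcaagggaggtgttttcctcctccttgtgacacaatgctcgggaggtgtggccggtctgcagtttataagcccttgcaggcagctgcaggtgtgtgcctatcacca

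Ifit3, Gbp2 and Rsad2 held the element in the reverse orientation, and the other three in the forward one. The match began 44 bases before the start in Ifit3, 41 in Tap2, 31 in Gbp2, 50 in Lgals3bp, 107 in Socs1 and 147 in Rsad2. The members are also neighbours in part: Rsad2 and Cmpk2 lie next to each other on chromosome 6, Ifit2 and Ifit3 on chromosome 1, and Parp9, Dtx3l and Parp14 follow each other on chromosome 11.

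Signals were MAS5 intensities on Affymetrix arrays, which carry no depth, so the number of arrays limits the precision. The median signal per array was 104 to 148.6 at a trimmed mean of 500 on each, and mean correlations with the other arrays were 0.855 to 0.934. The lowest correlations belonged to NORA 3 (0.855) and MTXAP 3 (0.882), where the number after the group is the replicate. The ratio of 3′ to 5′ signal of beta-actin, which is higher where RNA is shorter, separated whole groups. It was 3.15, 3.13 and 5.01 in MTXAP, 2.62, 2.44 and 2.69 in AP, 2.83 and 2.77 in RA, 4.36, 3.35 and 4.13 in HAP, and 3.01, 2.68 and 1.97 in NORA. AP lay below MTXAP, RA and HAP without overlap, and HAP lay above NORA. The leukocyte marker Ptprc and markers of T cells, NK cells and monocytes had signal on every array, and so did those of platelets and red cells, which can remain in such preparations. In such mixed samples, fewer cells of a type and less RNA per cell cannot be told apart.

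The list as a whole stood highest in AP. Of the 39 genes, 23 had their highest group mean in AP, while 19.9% of all 18515 probe sets tested did, and the highest mean was in MTXAP for 4 genes (19.5%), in RA for 4 (22.2%), in HAP for 2 (18.7%) and in NORA for 6 (19.7%). The lowest group mean was in MTXAP for 9 genes (23.1% of all probe sets tested), in AP for 1 (22.7%), in RA for 6 (21.5%), in HAP for 6 (9.62%) and in NORA for 17 (23%). The mean centred level of the list, in which each gene is set to a mean of 0 over the arrays and the genes are averaged, was -0.36, 0.08 and -0.13 in MTXAP, 0.20, 0.32 and 0.35 in AP, -0.01 and -0.08 in RA, -0.07, -0.11 and 0.12 in HAP, and -0.24, -0.02 and -0.04 in NORA (log2 units, replicates in order). All 3 AP arrays lay above all others. The level of MTXAP 3 includes Rsad2, which had a log2 signal of 6.65 there, far below its other arrays. The median over the genes, which a single gene moves less, was -0.03 on MTXAP 3. By that median AP had 0.16, 0.30 and 0.28, and the highest array outside AP was MTXAP 2 with 0.13. AP also had a lower actin 3′ to 5′ ratio than MTXAP, RA and HAP on every array, the 3 groups it was compared with, and the part of RNA length in the levels of the list was not tested. AP 3 held the highest signal of 12 of the 39 genes, against 8.9% of all probe sets tested, while MTXAP 1 and NORA 3 held the lowest of 8 each, against 10.2% and 21.9% of all probe sets.

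**Figure D1:**
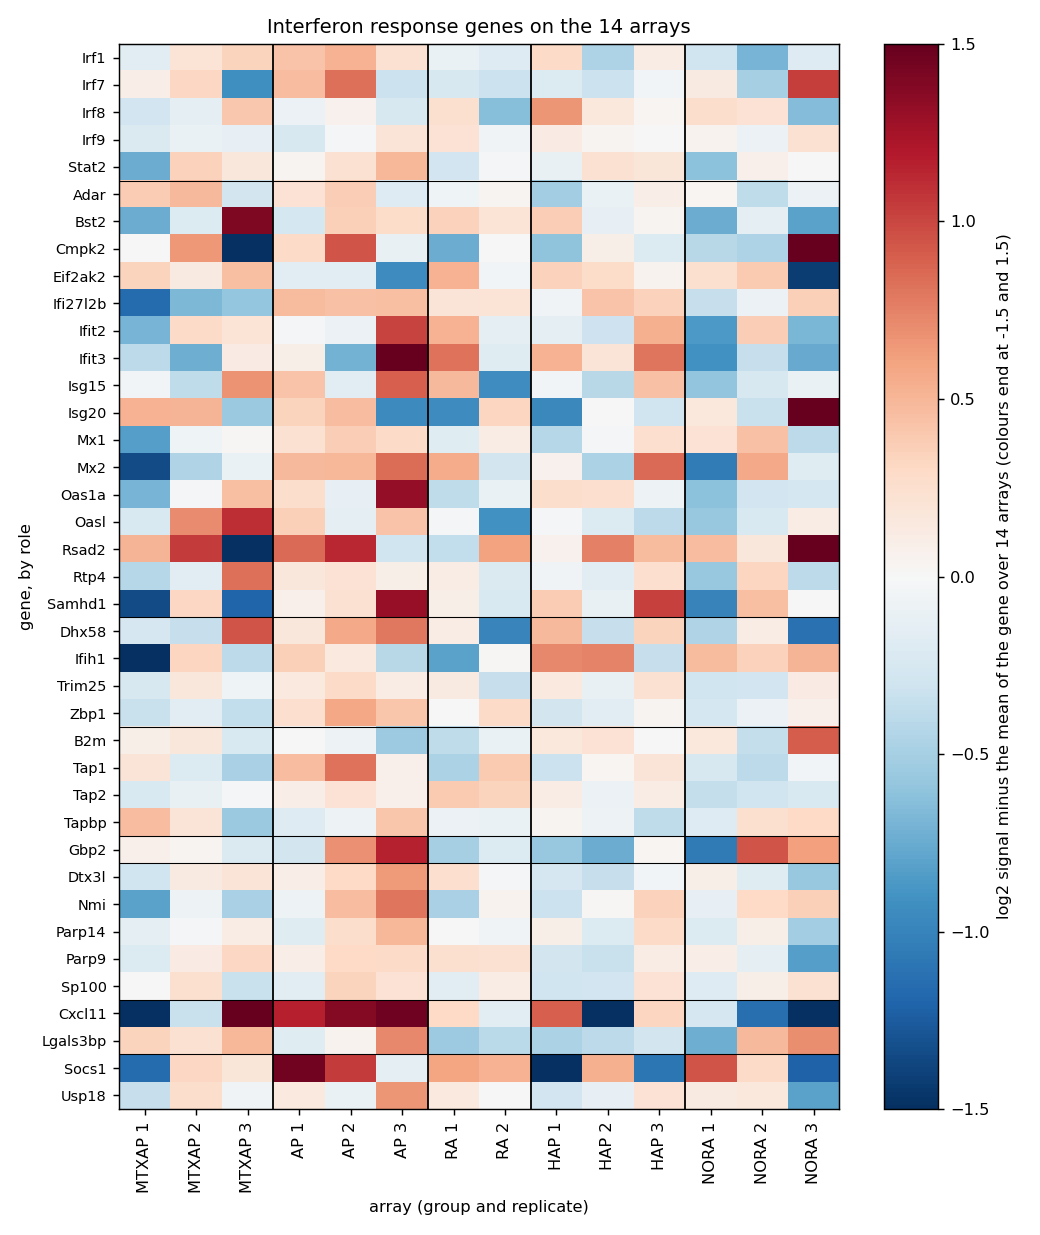
Log2 signal of the 39 interferon response genes (rows, grouped by role and separated by lines) on the 14 arrays (columns), each minus the mean of the gene over the arrays; red is higher and blue lower, and colours end at -1.5 and 1.5. AP columns are red in most rows, MTXAP 1 and NORA 1 are blue in most, and Rsad2 and Cmpk2 lie far apart on MTXAP 3 and NORA 3.

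Marker genes of single cell types varied beside the list. For the 7 monocyte markers (7 of 7 with a probe set, none listed at 0) the summed signal was 39225 to 55833 in MTXAP, 49341 to 54391 in AP, 43642 to 48643 in RA, 52053 to 60637 in HAP and 43306 to 71170 in NORA. The lysozyme gene Lyz2 makes up most of that sum. Their mean centred level, which weighs the markers equally, was -0.39 ± 0.70 in MTXAP, 0.52 ± 0.39 in AP, -0.13 ± 0.10 in RA, 0.25 ± 0.45 in HAP and -0.28 ± 0.60 in NORA (SD, n = 2 in RA, otherwise 3). It was lowest on MTXAP 1 (-1.18) and NORA 1 (-0.98) and highest on AP 3 (0.93), arrays that also held the lowest and highest levels of the interferon list. The 5 NK cell markers (5 of 5, none listed at 0) had a summed signal of 13703 to 21078 in MTXAP, 18187 to 39147 in AP, 23192 to 25947 in RA, 14437 to 21913 in HAP and 13605 to 28125 in NORA, and were highest on AP 2 and AP 3 (1.09 and 0.88). Of 5 markers of plasmacytoid dendritic cells, which make type I interferon, 2 had a probe set (Tcf4 and Bcl11a, none listed at 0), with summed signals of 1305 to 2904 in MTXAP, 2184 to 2258 in AP, 1540 to 1836 in RA, 1473 to 2350 in HAP and 1607 to 1986 in NORA. The 9 T cell markers (9 of 9, none listed at 0) summed to 42338 to 52878 in MTXAP, 47213 to 55989 in AP, 63231 to 73723 in RA, 50182 to 70468 in HAP and 43244 to 65570 in NORA. The 6 platelet markers (6 of 7, none listed at 0) summed to 72931 to 143145 in MTXAP, 105179 to 118984 in AP, 59877 to 84418 in RA, 92454 to 102241 in HAP and 88414 to 242320 in NORA. Between AP and RA the sums of the T cell, platelet, monocyte and plasmacytoid dendritic cell markers did not overlap, with the T cell sum lower in AP and the others higher. Of the T cell markers, Cd4, Lck and Cd5 had higher means in AP than in RA, and the other T cell markers lower ones. Between MTXAP and AP the sums given here overlapped. Mean centred levels were separate for NK cell markers (-0.35, -0.66 and -0.39 in MTXAP, -0.03, 1.09 and 0.88 in AP). They were separate for plasmacytoid dendritic cell markers too (-0.89, -0.65 and 0.18, against 0.42, 0.48 and 0.45). The part of these cells in the levels of the interferon genes was not tested.

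**Figure D2:**
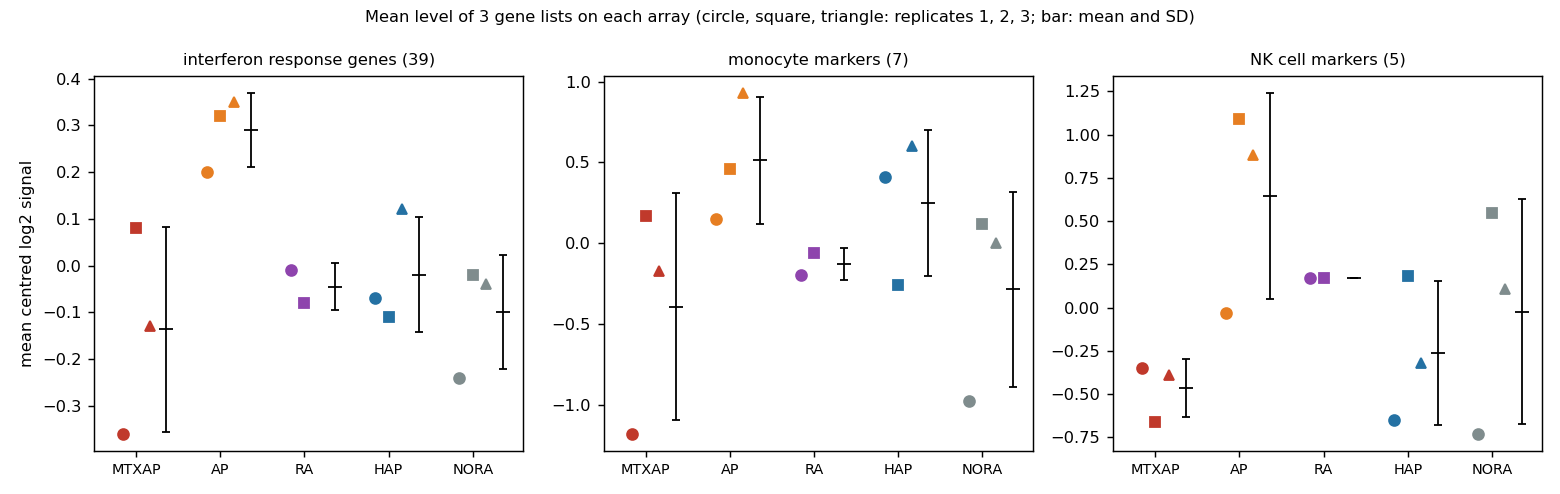
Mean centred log2 signal (vertical axis) of the 39 interferon response genes, the 7 monocyte markers and the 5 NK cell markers on each array of the 5 groups; symbols are arrays and bars the mean and SD (n = 2 in RA, otherwise 3). The 3 AP arrays lie at 0.20 to 0.35 for the interferon genes, above all others, and MTXAP 1 and NORA 1 are lowest in the first 2 panels. In the first panel MTXAP 3 includes Rsad2 at a log2 signal of 6.65.

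No gene of the list and no probe set at all reached an adjusted p of 0.05 (limma, Benjamini-Hochberg over 18515 probe sets) in any of the 6 comparisons or in the difference between 2 of them, so that the share of probe sets called was 0% in each. The lowest adjusted p of a member was 0.583 in RA over NORA, 0.616 in AP over RA, 0.901 in MTXAP over RA, 0.747 in HAP over NORA, 0.184 in MTXAP over AP, 0.81 in AP over HAP, and 0.36 in the difference. All values that follow are therefore given as values that did not pass the adjustment, and comparisons with a shared group are not independent of each other.

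The comparison of MTXAP with AP asks what methotrexate, together with its weekly injection, adds to acupuncture in arthritic rats. Of the 39 genes, 31 had a log2 fold change below 0 and 8 above it, against 49.4% of all probe sets tested above 0. The median was -0.33, against -0.01 over all probe sets tested. The actin ratio was separate between these groups (3.15, 3.13 and 5.01 in MTXAP, 2.62, 2.44 and 2.69 in AP). So were the mean centred levels of the NK cell and plasmacytoid dendritic cell markers, and the part of these was not tested. At an unadjusted p under 0.05, 5 of the 38 genes tested were lower (Ifi27l2b, Zbp1, Nmi, Mx2 and Samhd1) and 0 higher, against 7.76% and 7.07% of all probe sets. With a fold over 2 besides, the thresholds of the study, 3 were lower and 0 higher, against 4.5% of all probe sets in either direction. No array of MTXAP overlapped with those of AP in 5 genes that were lower (10.7% of all probe sets) and 1 that was higher (12.1%). The median was -0.18 without MTXAP 1 and -0.21 without AP 3. Over the 23 alternatives 30 to 33 genes were below 0. Among these, the filters, moderation and leaving out arrays of other groups cannot change that count. The count at the study's thresholds was 1 without MTXAP 1, 1 without AP 3 and 6 without MTXAP 2.

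In the comparison of AP with RA, which asks what follows acupuncture in arthritic rats, the list pointed the other way. Here 33 of 39 genes were above 0, against 49.2% of all probe sets tested, with a median of 0.28, against -0.01. The marker sums of T cells, platelets and monocytes and the actin ratio were separate between these groups too, and their part was not tested. Of the 38 genes tested, 0 had an unadjusted p under 0.05, against 3.9% of all probe sets higher and 3.93% lower, and 6 genes were higher and 2 lower without overlap between the groups, against 16.2% and 19.7%. Over the 23 alternatives, 30 to 35 genes were above 0, where the filters, moderation and leaving out arrays of other groups again cannot change the count. The count at the study's thresholds, 0 of 38 (3.62% of all probe sets), was 1 without AP 1 or AP 2. AP with HAP, both after acupuncture, asks how arthritic and healthy rats differ under that therapy. Again 33 of 39 genes were above 0, against 44.6% of all probe sets, with a median of 0.31, against -0.05. The platelet marker sum, higher in AP, and the actin ratio, lower there, were separate between AP and HAP, and their part was not tested. At an unadjusted p under 0.05, 3 genes were higher (Zbp1, Dtx3l and Socs1) and 0 lower, against 2.01% and 3.67%, and 4 were higher and 2 lower without overlap, against 7.08% and 10.8%. The median was 0.19 without HAP 1. Both comparisons share the AP arrays, and so does MTXAP over AP.

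In MTXAP over RA, 19 genes were above 0 and 20 below, with a median of -0.01, against -0.02 over all probe sets, and 48.1% of all probe sets above 0. The marker sums of T cells and NK cells, lower in MTXAP, and the actin ratio, higher there, were separate between these groups. Their part was not tested. The median was 0.05 without MTXAP 1, -0.12 without MTXAP 2, -0.06 without MTXAP 3, -0.04 without RA 1 and -0.10 without RA 2. At an unadjusted p under 0.05, 1 gene was higher (Oasl) and 2 were lower (Ifi27l2b and Tap2), against 2.55% and 2.85%. In RA over NORA, which sets immunised arthritic rats against healthy ones before any therapy, 25 genes were above 0, against 55.5%, with a median of 0.11, against 0.07. Of these, 1 gene (Tap2) was higher at an unadjusted p under 0.05 (3.12% of all probe sets) and 0 were lower (5.36%). The median was 0.03 without RA 1, 0.01 without NORA 1 and 0.21 without RA 2. In HAP over NORA, acupuncture in healthy rats, 23 genes were above 0, against 59.6%, with a median of 0.12, against 0.09. There 2 genes (Ifit3 and Tap2) were higher at an unadjusted p under 0.05 (3.72%) and 0 lower (2.46%), and the median was 0.06 without NORA 1, 0.08 without HAP 3 and 0.18 without NORA 2. At the study's thresholds there was 1 gene in MTXAP over RA (2.28% of all probe sets), 0 in RA over NORA (4.68%), 1 in HAP over NORA (2.3%) and 1 in AP over HAP (1.87%). Without overlap, 1 gene was higher and 5 were lower in MTXAP over RA (9.27% and 12.5%), 5 were higher and 1 lower in RA over NORA (11.7% and 9.33%), and 4 were higher and 0 lower in HAP over NORA (6.79% and 2.82%). The difference between AP over RA and HAP over NORA was above 0 for 27 genes, against 43.7%, with a median of 0.19, against -0.11, and 1 gene was higher (Lgals3bp) and 1 lower (Tap2) at an unadjusted p under 0.05 (6.1% and 6.99%), of which 1 was at the study's thresholds (10.2%). That median was 0.30 without NORA 1, 0.29 without AP 1 and 0.29 without HAP 3.

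**Figure D3:**
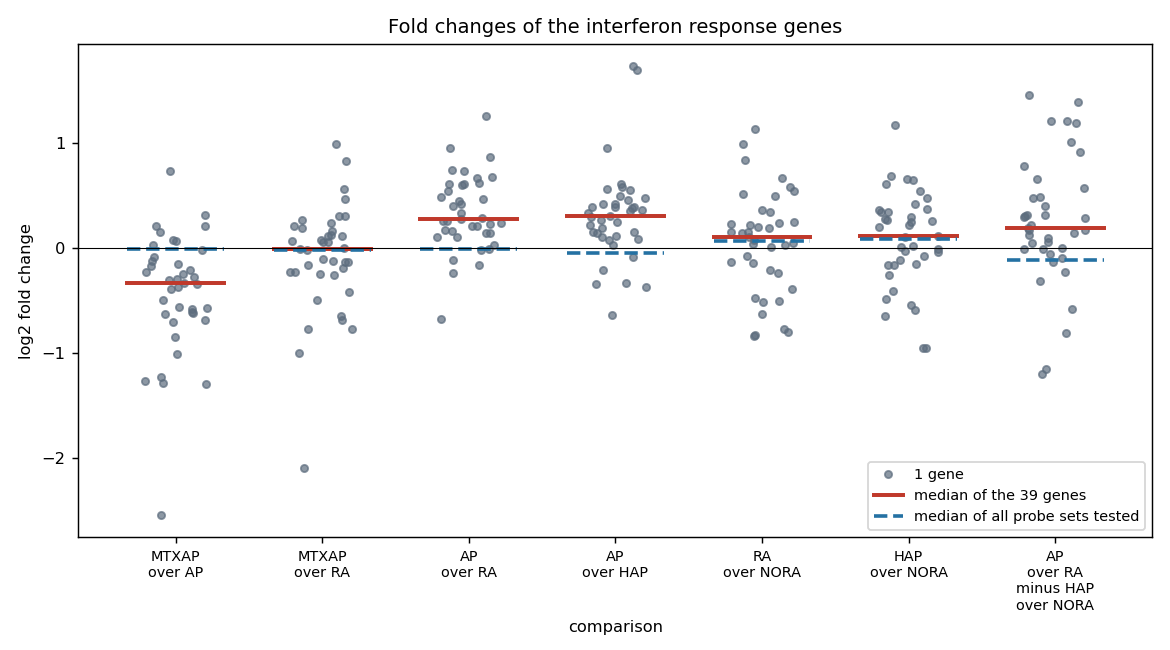
Log2 fold changes (vertical axis) of the 39 interferon response genes in 6 comparisons and in the difference between 2 of them (horizontal axis). Points are genes, the solid line is their median and the dashed line the median of all 18515 probe sets tested: the lines lie at -0.33 and -0.01 in MTXAP over AP, at 0.28 and -0.01 in AP over RA and at 0.31 and -0.05 in AP over HAP.

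Among the transcription factors, Irf1, an early interferon-induced activator of MHC class I and many other targets, followed the pattern of the list. Its log2 signal was 11.20, 11.56 and 11.69 in MTXAP, 11.79, 11.88 and 11.59 in AP, 11.26 and 11.17 in RA, 11.64, 10.89 and 11.47 in HAP, and 11.06, 10.66 and 11.16 in NORA. The AP arrays lay above both RA arrays and the RA arrays above all NORA arrays, with log2 fold changes of 0.54 ± 0.26 (SE) in AP over RA (adjusted p = 0.616) and 0.25 ± 0.26 in RA over NORA. Irf7, which amplifies type I interferon production, had 11.98, 12.19 and 10.96 in MTXAP, 12.34, 12.70 and 11.55 in AP, 11.64 and 11.55 in RA, 11.67, 11.56 and 11.84 in HAP, and 12.01, 11.38 and 12.91 in NORA. Its extremes were NORA 3 and MTXAP 3, and none of the groups compared were separate. Irf8, a factor of monocyte and dendritic cell development, had 10.71, 10.86 and 11.39 in MTXAP, 10.90, 11.06 and 10.75 in AP, 11.23 and 10.35 in RA, 11.65, 11.15 and 11.02 in HAP, and 11.26, 11.21 and 10.34 in NORA. All groups overlapped, and all fold changes of Irf8 lay between -0.37 and 0.34. Stat2 and Irf9, members of the ISRE-binding complex, ranged from 9.04 to 10.28 and from 9.92 to 10.39. Stat2 was separate between AP and RA (0.40, higher in AP) and Irf9 between MTXAP and RA (-0.23, lower in MTXAP). On their second probe sets Stat2 was again separate, with 9.51, 9.95 and 9.71 in AP, and 9.25 and 9.21 in RA, while Irf9 overlapped, with 9.44, 9.76 and 9.73 in MTXAP, and 9.93 and 9.63 in RA. On that probe set of Stat2, MTXAP (8.74, 8.95 and 9.12) lay below AP too, while on the brighter one these groups overlapped.

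The gene of the list with the lowest p was Ifi27l2b, a relative of human IFI27, an interferon-induced membrane protein. Log2 signals were 11.64, 12.12 and 12.22 in MTXAP, 13.27, 13.24 and 13.25 in AP, 12.99 and 13.0 in RA, 12.74, 13.23 and 13.14 in HAP, and 12.45, 12.71 and 13.16 in NORA. All 3 MTXAP arrays lay below all 11 others, which spanned 12.45 to 13.27. The log2 fold change was -1.26 ± 0.23 (SE) in MTXAP over AP (adjusted p = 0.184) and -1.0 ± 0.26 in MTXAP over RA (adjusted p = 0.901). In HAP over NORA and in RA over NORA it was 0.26 ± 0.23 and 0.22 ± 0.26.

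Mx2, an antiviral GTPase of the dynamin family, had 9.53, 10.42 and 10.77 in MTXAP, 11.35, 11.36 and 11.71 in AP, 11.42 and 10.59 in RA, 10.93, 10.39 and 11.72 in HAP, and 9.82, 11.44 and 10.69 in NORA. MTXAP and AP did not overlap, while RA, HAP and NORA spread over both, and MTXAP over AP was -1.23 ± 0.46 (adjusted p = 0.27). The second probe set of Mx2 was dimmer and did not show this: 6.99, 7.86 and 8.29 in MTXAP, and 7.16, 7.82 and 7.72 in AP. Mx1, the other GTPase of the family, had 10.44, 11.20 and 11.29 in MTXAP, 11.49, 11.64 and 11.55 in AP, 11.08 and 11.38 in RA, 10.84, 11.24 and 11.52 in HAP, and 11.48, 11.71 and 10.88 in NORA. MTXAP lay below AP here too (-0.58 ± 0.28, adjusted p = 0.359), and AP above RA (0.33 ± 0.32). Mx1 and Mx2 are close relatives, and how far the probes of each can bind the other transcript was not tested.

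Samhd1, which degrades deoxynucleotides and so starves virus replication, had 9.30, 10.95 and 9.44 in MTXAP, 10.72, 10.87 and 11.95 in AP, 10.73 and 10.41 in RA, 11.02, 10.53 and 11.66 in HAP, and 9.64, 11.09 and 10.65 in NORA. MTXAP over AP was -1.29 ± 0.52 (adjusted p = 0.297). MTXAP 2 lay within the AP range, so the groups overlapped, and the lowest 3 arrays, MTXAP 1, MTXAP 3 and NORA 1, include the 2 with the lowest monocyte markers. On MTXAP 3 the mean centred monocyte marker level was -0.17, close to that of RA 1 (-0.20), where Samhd1 had 10.73. Single markers differed between these arrays. Ccr2 (5.30 against 7.08), Csf1r and Fcgr3a were lower on MTXAP 3, and Cd14 (12.80 against 11.44), Itgam, Cd68 and Lyz2 higher. Samhd1 is known to be abundant in myeloid cells, and their part in its signal was not tested.

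Ifit3, which works with other Ifit proteins against viral RNA, was chiefly low in NORA: 8.97, 8.63 and 9.48 in MTXAP, 9.45, 8.65 and 10.86 in AP, 10.17 and 9.18 in RA, 9.88, 9.55 and 10.16 in HAP, and 8.45, 9.01 and 8.61 in NORA. HAP and RA each lay wholly above NORA, with log2 fold changes of 1.17 ± 0.48 in HAP over NORA (adjusted p = 0.747) and 0.99 ± 0.54 in RA over NORA (adjusted p = 0.59). AP spread over more than the whole range of HAP, with an SD of 1.12. Its neighbour Ifit2 ranged from 8.47 to 10.34 with its highest signal on AP 3 too, and had 0.42 in HAP over NORA and 0.58 in RA over NORA, without separate groups.

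Isg15, a ubiquitin-like protein attached to other proteins, had 9.41, 9.07 and 10.13 in MTXAP, 9.88, 9.29 and 10.35 in AP, 9.94 and 8.52 in RA, 9.41, 9.04 and 9.90 in HAP, and 8.86, 9.22 and 9.35 in NORA. None of the groups compared were separate, and AP over RA was 0.61 ± 0.46. Oas1a, an oligoadenylate synthetase that switches on an RNA-degrading enzyme, had 8.39, 9.06 and 9.54 in MTXAP, 9.35, 8.96 and 10.40 in AP, 8.70 and 8.98 in RA, 9.35, 9.34 and 9.01 in HAP, and 8.47, 8.80 and 8.82 in NORA. HAP lay above NORA without overlap (0.54 ± 0.36, adjusted p = 0.747). Oas1a belongs to a family of similar genes, and its relative Oasl had 0.99 in MTXAP over RA (SE 0.39, adjusted p = 0.921), with its highest signals on MTXAP 3 and MTXAP 2 (10.33 and 9.93) and its lowest on RA 2 (8.32).

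**Figure D4:**
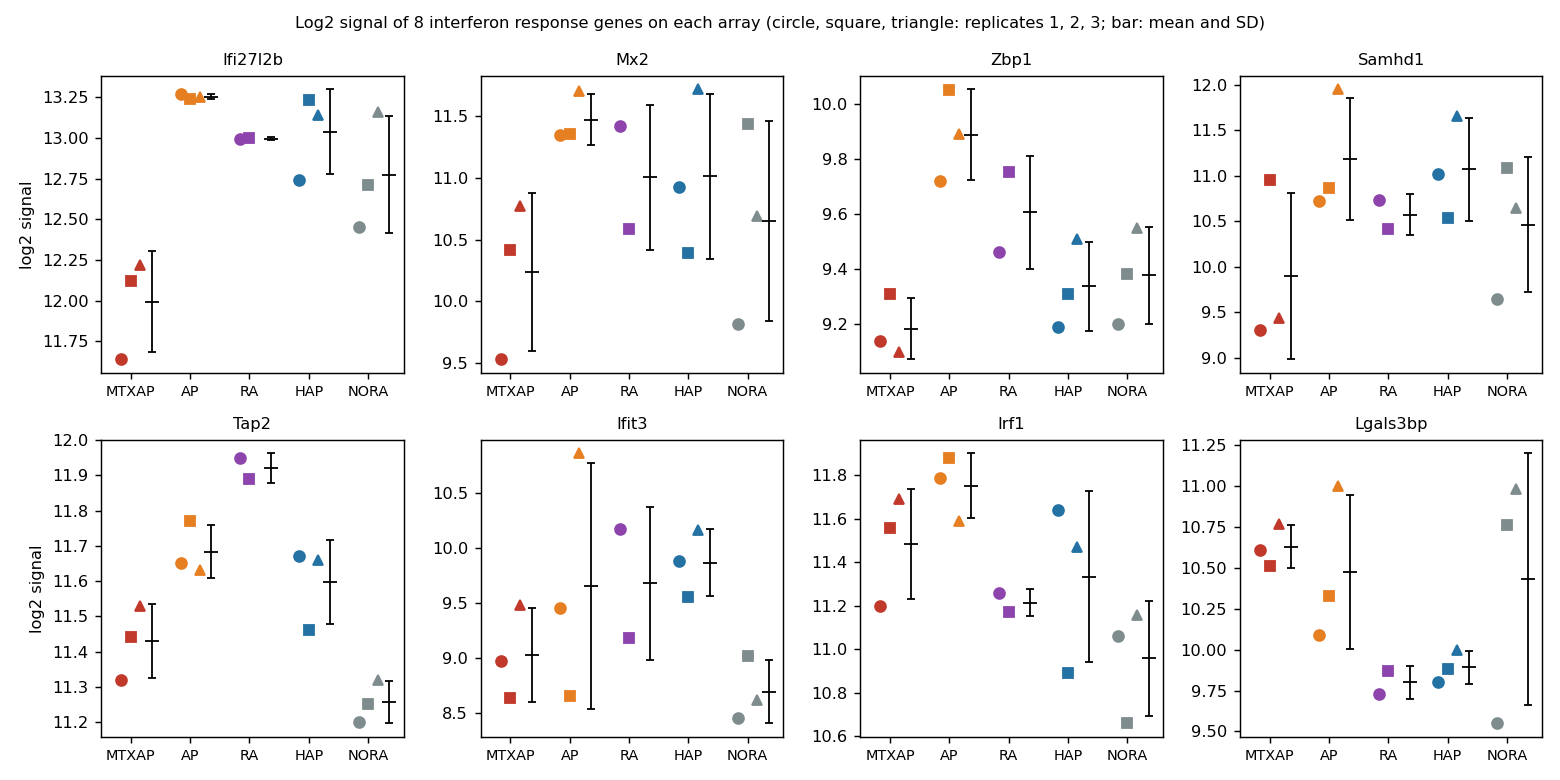
Log2 signal (vertical axis, a scale of its own in each panel) of 8 genes on each array of the 5 groups; symbols are arrays and bars the mean and SD (n = 2 in RA, otherwise 3). The 3 MTXAP arrays of Ifi27l2b (11.64 to 12.22) lie below all others, and the NORA arrays of Tap2 (11.20 to 11.32) are lower than all arrays of AP, RA and HAP.

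Rsad2 (viperin), an enzyme that makes a chain-terminating nucleotide, differed between arrays more than any other gene of the list. It had 14.65, 15.19 and 6.65 in MTXAP, 14.99, 15.27 and 13.84 in AP, 13.77 and 14.74 in RA, 14.21, 14.90 and 14.62 in HAP, and 14.61, 14.31 and 16.24 in NORA. MTXAP 3 stood 7.12 log2 units below the next lowest array, and NORA 3 stood 0.97 above the next highest. Erythroid markers had the same extremes: Alas2, the first enzyme of heme synthesis in red cells, was 6.79 log2 units below the next lowest array on MTXAP 3 and 1.41 above the next highest on NORA 3, and Slc4a1, the anion exchanger of red cells, 6.39 and 1.08. The 5 lowest arrays of Rsad2 (MTXAP 3, RA 1, AP 3, HAP 1 and NORA 2) were those of Alas2 and of Slc4a1, a set that 222 of 18515 probe sets (1.2%) shared. The erythroid markers Hbb and Rhag were also highest on NORA 3 and lowest on MTXAP 3, but shared only 3 and 2 of these 5 arrays. The platelet marker Itga2b had the same highest and lowest array too, while the other platelet markers were lowest on RA 1. The 4 erythroid markers with a probe set (4 of 6, none listed at 0) summed to 2435 to 87048 in MTXAP, 41330 to 80320 in AP, 47487 to 67269 in RA, 64833 to 77029 in HAP and 45111 to 181892 in NORA, with 2435 on MTXAP 3 and 181892 on NORA 3. The part of red cells in the signal of Rsad2 was not tested.

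Cmpk2, the mitochondrial nucleotide kinase beside Rsad2 on chromosome 6, had the same highest and lowest array on both of its probe sets, 8.48 on MTXAP 3 and 12.15 on NORA 3 on the brighter, against 9.30 to 10.98 on the other 12 arrays. Highest on NORA 3 and lowest on MTXAP 3 were 3 of the 39 genes, Rsad2, Cmpk2 and Irf7, while 1111 of all 18515 probe sets were (6%). Isg20, an RNA exonuclease, shared all 5 lowest arrays with Alas2 and stood 1.24 above the next highest array on NORA 3. B2m shared 4 of the 5 and stood 0.69 above on NORA 3. The log2 fold change of Rsad2 in MTXAP over AP, -2.54 ± 1.69 (adjusted p = 0.507), includes MTXAP 3 at 6.65, while the other MTXAP arrays lay within the AP range.

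**Figure D5:**
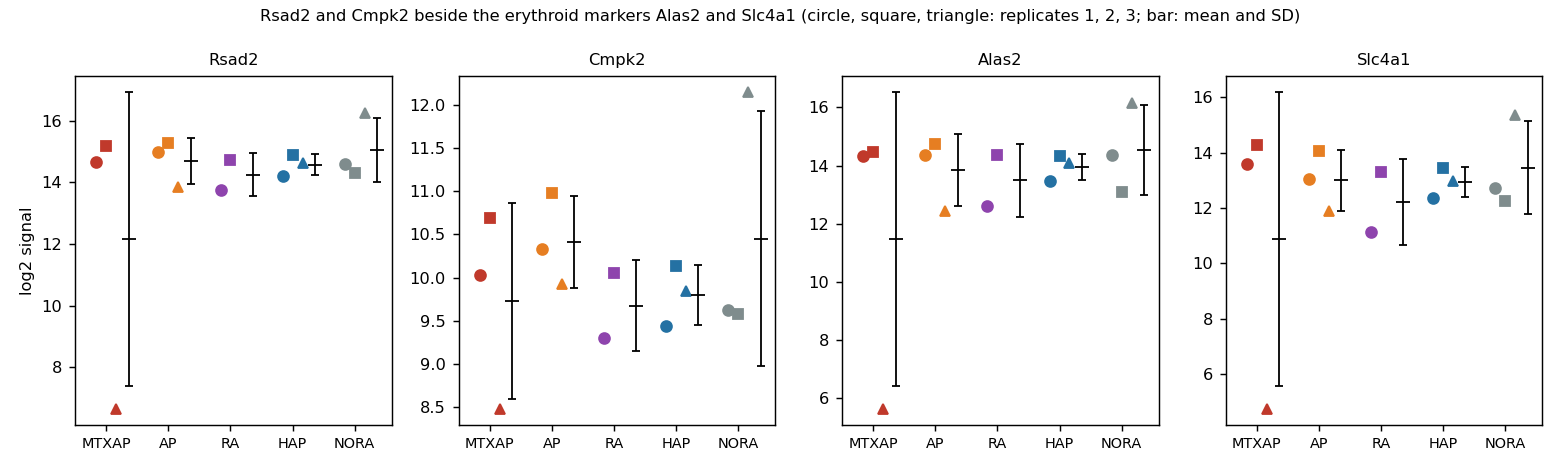
Log2 signal (vertical axis, a scale of its own in each panel) of Rsad2 and Cmpk2 and of the erythroid markers Alas2 and Slc4a1 on each array of the 5 groups; symbols are arrays and bars the mean and SD (n = 2 in RA, otherwise 3). In all 4 panels the lowest array is MTXAP 3 and the highest NORA 3, with Rsad2 at 6.65 and 16.24.

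The other antiviral genes were Adar, an RNA editing enzyme, Eif2ak2 (PKR), a kinase that stops translation, Bst2 (tetherin), which holds virus particles at the cell surface, and Rtp4. Eif2ak2 ran against the list: AP (9.18, 9.19 and 8.41) lay below MTXAP (9.68, 9.48 and 9.80), RA (9.87 and 9.31) and HAP (9.69, 9.62 and 9.40) without overlap. Bst2 lay higher in RA and in HAP than in NORA without overlap (0.84 and 0.66), and its highest array was MTXAP 3 (12.17). Adar and Rtp4 ranged from 8.61 to 9.62 and from 8.39 to 9.78 with no separate groups on these probe sets. On a dimmer probe set of Adar, AP (7.86, 7.50 and 7.64) lay above MTXAP (7.47, 7.27 and 6.91), RA (7.18 and 7.01) and HAP (7.38, 7.48 and 7.42). NORA overlapped with AP there (7.27, 6.93 and 7.83). On another, AP (8.72, 8.71 and 8.71) lay just above RA (8.68 and 8.51) and overlapped with MTXAP and HAP.

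Of the sensors of nucleic acid and their regulators, Zbp1, which recognises left-handed double-stranded nucleic acid and can start necroptosis, had the lowest p. It had 9.14, 9.31 and 9.10 in MTXAP, 9.72, 10.05 and 9.89 in AP, 9.46 and 9.75 in RA, 9.19, 9.31 and 9.51 in HAP, and 9.20, 9.38 and 9.55 in NORA. MTXAP lay below AP and RA, and AP above HAP, without overlap. The log2 fold change was -0.70 ± 0.18 in MTXAP over AP (adjusted p = 0.188) and 0.55 ± 0.18 in AP over HAP (adjusted p = 0.81). Ifih1 (MDA5), a sensor of viral RNA in the cytoplasm, and Dhx58 (LGP2), its regulator, were dim, from 5.04 to 7.47 and from 5.78 to 7.85, and the probe set of Dhx58 is of a type that can also bind other transcripts. Trim25, a ubiquitin ligase that activates RIG-I, ranged from 10.30 to 10.94.

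Antigen presentation held the gene of the list with the lowest p in RA over NORA. Tap2, a chain of the transporter that brings peptides to MHC class I, had 11.32, 11.44 and 11.53 in MTXAP, 11.65, 11.77 and 11.63 in AP, 11.95 and 11.89 in RA, 11.67, 11.46 and 11.66 in HAP, and 11.20, 11.25 and 11.32 in NORA. The order RA, AP, MTXAP had no overlap between neighbours, and RA, AP and HAP all lay above NORA. The log2 fold change was 0.67 ± 0.17 in RA over NORA (adjusted p = 0.583), -0.49 ± 0.17 in MTXAP over RA (adjusted p = 0.901), and 0.34 ± 0.15 in HAP over NORA (adjusted p = 0.747). With array weights, an adjusted p of 0.0329 was reached in RA over NORA, a setting in which 4.13% of all probe sets were called.

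Tap1, the other chain of the transporter, did not have this order: 10.62, 10.22 and 9.94 in MTXAP, 10.89, 11.24 and 10.50 in AP, 9.95 and 10.82 in RA, 10.10, 10.46 and 10.62 in HAP, and 10.18, 10.03 and 10.38 in NORA. MTXAP over AP was -0.62 ± 0.28 (adjusted p = 0.339) with overlap between the groups. On the dimmer second probe set of Tap1, MTXAP (6.54, 6.58 and 5.82) lay just below AP (7.29, 7.12 and 6.59). B2m, the light chain of MHC class I, had 15.85, 15.94 and 15.54 in MTXAP, 15.76, 15.69 and 15.22 in AP, 15.39 and 15.67 in RA, 15.92, 15.98 and 15.77 in HAP, and 15.92, 15.41 and 16.67 in NORA. AP over HAP was -0.33 ± 0.29 (adjusted p = 0.824), with 15.76 on the highest AP and 15.77 on the lowest HAP array. The second probe set overlapped, with 14.80, 14.90 and 14.94 in AP, and 14.89, 14.97 and 14.85 in HAP. Tapbp (tapasin), which holds MHC class I at the transporter, ranged from 9.24 to 10.26 with all groups overlapping.

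Gbp2, a guanylate-binding protein of defence inside the cell, had 10.96, 10.92 and 10.67 in MTXAP, 10.61, 11.57 and 12.04 in AP, 10.39 and 10.68 in RA, 10.32, 10.14 and 10.91 in HAP, and 9.82, 11.83 and 11.50 in NORA. NORA alone spanned most of that range, and AP over HAP was 0.95 ± 0.49 (adjusted p = 0.81). Among the PARP and ubiquitin factors and nuclear body proteins, Dtx3l and Parp9, which form a ubiquitin ligase complex, ranged from 9.33 to 10.53 and from 9.5 to 10.63, both lowest on NORA 3. Dtx3l was 0.56 ± 0.23 higher in AP than in HAP (adjusted p = 0.81) without overlap. Nmi, a partner of STAT proteins, was -0.85 ± 0.29 in MTXAP over AP (adjusted p = 0.243), where MTXAP 2 and AP 1 both had 9.83. On the second probe set of Nmi, MTXAP (8.60, 9.09 and 9.16) lay below AP (9.47, 9.71 and 9.91). Parp14 and Sp100 ranged from 9.04 to 10.06 and from 9.42 to 10.09.

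Of the secreted proteins, Lgals3bp, a glycoprotein that binds galectins, had 10.61, 10.51 and 10.77 in MTXAP, 10.09, 10.33 and 11.0 in AP, 9.73 and 9.87 in RA, 9.80, 9.88 and 10 in HAP, and 9.55, 10.76 and 10.98 in NORA. MTXAP and AP lay above RA, and AP above HAP, without overlap, while NORA had both the lowest array and 1 close to the highest. The difference between AP over RA and HAP over NORA was 1.21 ± 0.51 (adjusted p = 0.364), and it was 1.65 (adjusted p = 0.0346) without NORA 1, when 5.29% of all probe sets were called. Cxcl11, a chemokine for activated T cells, was too dim to be tested, with 2.65, 4.55 and 7.58 in MTXAP, 6.04, 6.25 and 6.34 in AP, 5.18 and 4.72 in RA, 5.77, 2.55 and 5.20 in HAP, and 4.63, 3.75 and 3.09 in NORA. AP lay above RA and HAP, and RA above NORA, without overlap.

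The list holds 2 feedback inhibitors. Socs1, which blocks Janus kinases, had 5.14, 6.61 and 6.48 in MTXAP, 7.75, 7.35 and 6.17 in AP, 6.89 and 6.82 in RA, 4.02, 6.83 and 5.22 in HAP, and 7.24, 6.59 and 5.09 in NORA. AP over HAP was 1.73 ± 0.73 (adjusted p = 0.81), with HAP 2 inside the AP range. The second probe set gave 5.54, 6.82 and 6.06 in AP and 4.64, 7.26 and 6.93 in HAP, without that difference. Usp18, which removes Isg15 from proteins and blocks the type I receptor, had 8.19, 8.80 and 8.48 in MTXAP, 8.69, 8.44 and 9.20 in AP, 8.68 and 8.53 in RA, 8.25, 8.42 and 8.76 in HAP, and 8.67, 8.70 and 7.73 in NORA. Its log2 fold changes all lay between -0.29 and 0.30.

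Another 50 genes of the pathway with a probe set, taken as ligands, receptors, kinases, other STATs and IRFs, adaptors, inhibitors and further induced genes, were read beside the list, and 46 were tested. None passed the adjustment. The ligands Ifnb1, Ifng and Ifnk were among those that did not pass the filter on low values. In MTXAP over AP, 31 of 50 genes were below 0 with a median of -0.14, against 49.4% of all probe sets above 0. At an unadjusted p under 0.05, 4 of 46 were higher and 11 lower, against 7.07% and 7.76% of all probe sets. Lower in MTXAP were Psmb9, a subunit of the immunoproteasome that cuts peptides for MHC class I (-0.90 ± 0.23, adjusted p = 0.188), Psme2, a subunit of its activator (-0.83 ± 0.23, adjusted p = 0.196), and Ptpn6, a phosphatase that restrains Janus kinase signals (-1.52 ± 0.40, adjusted p = 0.188). Jak2 and Tyk2, kinases of the interferon receptors, had -0.67 and -0.57, while Jak1, another such kinase, had 0.23. Stat3 and Tbk1, a kinase that activates IRFs, had 0.77 and 0.97. Of the receptors, Ifngr1 and Ifngr2 had 0.72 and 0.52, and Ifnar1 and Ifnar2 had -0.13 and -0.14.

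In RA over NORA, 4 of the 46 genes tested were higher at an unadjusted p under 0.05 and 0 lower, against 3.12% and 5.36% of all probe sets: the immunoproteasome subunits Psmb8 (0.54 ± 0.24) and Psmb9 (0.64 ± 0.26), the activator subunit Psme1 (0.47 ± 0.20), and Nlrc5, the transactivator of MHC class I genes (0.89 ± 0.28, adjusted p = 0.583). In MTXAP over RA, 4 of 46 were lower and 0 higher, against 2.85% and 2.55%, namely Psmb8 (-0.56), Psmb9 (-0.74), Psmb10 (-0.59) and Psme2 (-0.86). The part of the T cell and NK cell marker sums and the actin ratio, separate between these groups, was not tested. Psmb9 had 11.30, 11.75 and 11.96 in MTXAP, 12.27, 12.70 and 12.76 in AP, 12.43 and 12.39 in RA, 12.10, 11.98 and 12.33 in HAP, and 11.43, 11.94 and 11.93 in NORA. Its AP and RA arrays lay above all arrays of MTXAP and NORA. In AP over RA, 0 of 46 were higher and 2 lower, near the shares of all probe sets (3.9% and 3.93%), namely Pias1, an inhibitor of STAT signalling (-0.85), and Nlrc5 (-0.64).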

How the data were processed

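PBMC RNA of 14 rats was hybridised to Affymetrix rat arrays. The deposited values are linear signal intensities that the authors computed with mas5 of the affy package, whose version is not given in the sources used here; detection calls, on which the study filtered, were not used here. MAS5 scales each array to the same trimmed mean (2% at each end), so a difference in total RNA is removed. The logarithms to base 2, with nothing added, went into a linear model of limma (version 3.58.1, under R version 4.3.3) holding the 14 arrays and a mean for each group, followed by empirical Bayes moderation and Benjamini-Hochberg adjustment over 18515 of 31042 probe sets, after 57 controls were left out. Probe sets were kept when above the array median on at least 2 arrays. P-values set the difference between group means against the spread between animals within groups, estimated jointly for all groups. The fit was tested on simulated data with 200 changed probe sets. Of the probe sets, 20826 had 1 symbol, 436 several and 9780 none.

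The members and lists were chosen with earlier results of these data known. Genes given with values on every array were those at the study's thresholds in any comparison (Mx2, Ifit3, Ifi27l2b, Lgals3bp, Samhd1 and Socs1) and a list of well-known interferon genes (Irf1, Irf7, Irf8, Isg15, Mx1, Mx2, Oas1a, Ifit3, Rsad2, B2m, Tap1, Gbp2, Cxcl11, Socs1 and Usp18). All others, such as Tap2, Zbp1, Nmi, Cmpk2 and Psmb9, were singled out after their values were seen. Alternatives were quantile normalization, a pseudocount of 32, no filter and a stricter one (15651 probe sets), array weights, a replicate block, no moderation, other probe sets and leaving out each array.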

Additional observations from a re-analysis of the deposited data

Results flagged for a closer look

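Tap2 went opposite ways in the 2 comparisons after acupuncture. In AP over RA its log2 fold change was -0.24 ± 0.17 (SE), with all AP arrays below both RA arrays, while in HAP over NORA it was 0.34 ± 0.15, with all HAP arrays above all NORA arrays. The difference was -0.58 ± 0.23 (adjusted p = 0.36), so it did not pass the adjustment. RA has 2 arrays, and what sets the difference was not tested.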

How the results depend on the processing

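No member had an adjusted limma p under 0.05, and this held in 158 of 161 values over all comparisons and alternatives. With array weights there was 1 called in RA over NORA (Tap2, 0.67, adjusted p = 0.0329, where 4.13% of probe sets were called) and 2 in the difference between AP over RA and HAP over NORA (Lgals3bp, 1.37, adjusted p = 0.034, and Gbp2, 2.05, adjusted p = 0.0397, where 8.92% were called). Leaving out each array gave 0 to 1 in that difference, with 1 (Lgals3bp) without NORA 1. The count of members at the study's thresholds moved in 36 of 161 values. It was 0 in MTXAP over RA with the pseudocount of 32. With array weights it was 1 in RA over NORA and 2 in the difference. Without moderation it was 0 in HAP over NORA and 0 in AP over HAP. Without NORA 3 and MTXAP 3, a setting chosen after seeing the data, it was 0 in HAP over NORA and 0 in the difference. Leaving out each array in turn gave 0 to 2 in RA over NORA, 0 to 3 in AP over RA, 0 to 2 in MTXAP over RA, 0 to 2 in HAP over NORA, 1 to 6 in MTXAP over AP, 0 to 1 in AP over HAP and 0 to 3 in the difference. The median of the members in MTXAP over AP was -0.43 to -0.18 when each array was left out. For members at an unadjusted limma p under 0.05 in a comparison, 365 of 368 values kept their side of the threshold and 0 reversed. Such members were picked by their p in these same data, so this says little about the other members. The cause of these changes was not tested, beyond the smaller number of arrays when one is left out.

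With the replicate number as a block, the count at the study's thresholds was 1 in RA over NORA and 2 in the difference, and no other call changed. The numbers did not pair the arrays: same-numbered arrays correlated in their deviations at a mean of 0.028 and others at -0.0146, and 3 of 14 arrays correlated best with their own number. Leaving out an RA array leaves 1 sample, assumed to vary like the other groups. Signals near background, such as those of Cxcl11, Ifih1 and Socs1, limit what can be read.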
